A study of Mus musculus with 48 samples.

Results

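No probe in the hippocampus of WT mice differed between MSX-3 and plain drinking water (H2O) at the threshold used, a BH adjusted *p*-value under 0.05 with a fold change of at least 1.5. The comparison was made on 12 of the 48 arrays of the series, 6 from WT MSX-3 mice and 6 from WT H2O mice, chosen by their labelled tissue, genotype and treatment. Each array held the hippocampal RNA of 1 mouse. The mice were male WT littermates of APP/PS1 mice on a C57Bl6/J background, none of them carrying the APP/PS1 transgenes. MSX-3 was dissolved in the drinking water at 0.3 g/L, and tissue was taken at 9 to 10 months of age after perfusion. The sample labels place the start of treatment at 3 months and the series text at 4 months. The drug was given through the drinking water of cages that held several mice. The labels do not give the cage, so cage and treatment cannot be told apart. Levels are log2 values of background-subtracted intensity relative to the 75th percentile of the array, so that 0 marks the brightness of that percentile, and differences are MSX-3 minus H2O on this scale.

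MSX-3 dissolves in water and is converted in the body to MSX-2, which blocks the adenosine A2A receptor selectively. Adenosine is released by active or stressed brain tissue and acts on the A1, A2A, A2B and A3 receptors. The A2A receptor couples to stimulatory G proteins that raise cAMP, is most abundant in the striatum, and sits at lower density at hippocampal synapses, where it modulates glutamate release and plasticity. The A1 receptor couples to inhibitory G proteins and is abundant in the hippocampus.

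The quality measures of the arrays had overlapping ranges in both groups. The 75th percentile intensity was 547 to 907 (median 801) in WT MSX-3 arrays and 654 to 913 (median 759) in WT H2O arrays, with an exact permutation *p* of 0.870 (two-sided). The share of spots well above background was 65.4 to 74.6% (median 67.6%) and 64.2 to 73.3% (median 68.8%), with an exact permutation *p* of 0.879. The smallest *p* this design allows is 0.00216. All pairs of these arrays correlated at 0.967 to 0.994. Markers of the dentate gyrus and of the CA3 and CA2 fields stood above their cortical levels in 6 of 8 and 5 of 7 genes, with median differences of 2.49 and 1.53. Prnp, read as a check of genotype because the transgenes sit in a prion gene vector, stayed at or below 5.61 on every WT hippocampal array and at or above 7.01 on every APP/PS1 hippocampal array. Scan day was uneven, since 4 MSX-3 and 2 H2O arrays were scanned on the first day and 2 MSX-3 and 4 H2O arrays on the second. Of the 7 slides, 3 held both groups.

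RNA of the choroid plexus, the secretory tissue in the ventricles beside the hippocampus, was present in uneven amounts, and it separated mice within each group. Ttr, the thyroid hormone carrier that the choroid plexus secretes, had levels of 0.10 to 7.16 (median 1.77) in WT MSX-3 mice and of −2.06 to 7.59 (median 3.34) in WT H2O mice. It lay above 7 in 1 MSX-3 mouse and in 3 H2O mice and at or below 2.51 in the other 8. These 4 arrays are named below as the arrays of high Ttr, and some results, not all, are given without them too.

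Among 38128 probes tested, 0 were called (0%), and the smallest BH adjusted *p*-value by limma was 0.959. At an unadjusted *p* under 0.05 there were 1932 probes (5.07%), 359 of them higher (0.942%) and 1573 lower (4.13%) in WT MSX-3 mice. The median standard error of a log2 difference was 0.14, and 26792 probes (70.3%) had a 95% interval that lay wholly within a 1.5-fold change in either direction. A total of 607 probes (1.59%) had an estimated difference of 1.5-fold or more. Between the groups, all 6 MSX-3 values lay on one side of all 6 H2O values for 99 of the 37671 probes with a value on each array (0.263%), 13 higher (0.0345%) and 86 lower (0.228%).

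**Figure D1:**
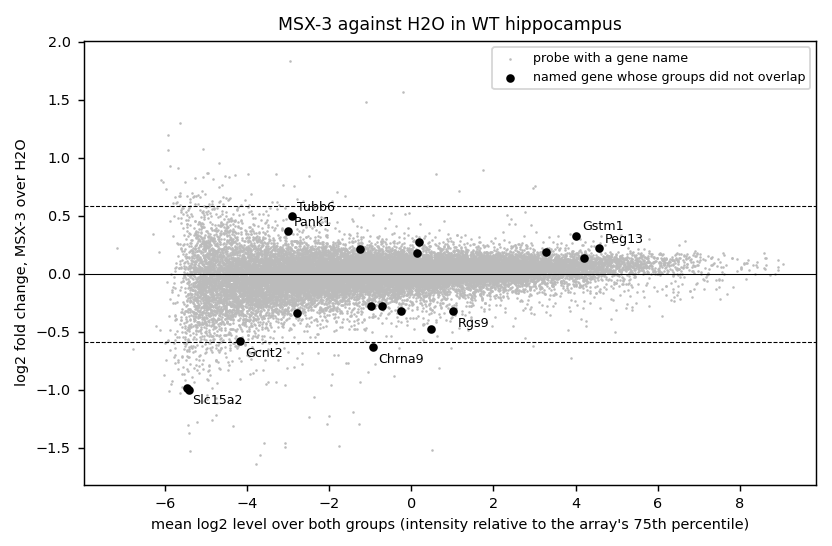
Log2 fold change of MSX-3 over H2O in WT hippocampus (vertical axis) against the mean log2 level of both groups (horizontal axis) for each tested probe with a gene name, 6 mice per group. Dashed lines mark a 1.5-fold change and black points the named genes whose groups did not overlap; Gstm1 (0.33) stands among bright probes and Slc15a2 (−0.99) among the dimmest.

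The lower probes were mostly ones without a RefSeq gene. Probes matched to a RefSeq gene made up 64.3% of the tested probes, 77.4% of the 359 higher ones and 22.6% of the 1573 lower ones. Of 23014 probes for coding RefSeq transcripts, 261 were higher (1.13%) and 276 lower (1.2%) at an unadjusted *p* under 0.05. Of 4926 probes designed on cDNA or other sequences, 19 were higher and 561 lower (11.4%), and of 4673 probes on Ensembl transcripts 31 were higher and 421 lower (9.01%). Non-coding RefSeq transcripts had 29 higher and 122 lower probes of 2113 (5.77% lower). Probes without a gene name were dimmer than named ones. Their median level was −2.75 in WT MSX-3 and −2.64 in WT H2O mice, beside −0.84 and −0.83. Of 12710 dim probes 121 were higher and 599 lower, and of 12709 bright ones 126 and 289. The 12709 probes of middle level held 112 and 685. Median differences were −0.08 for dim, −0.02 for middle and 0.04 for bright probes. The part of level and of kind of transcript in the lower counts was not tested. With 1 probe per gene, the 16715 named genes held 209 higher (1.25%) and 241 lower (1.44%), and 9736 of them (58.2%) had a difference above 0, with a median of 0.02. Under quantile normalization the share of higher probes among those at an unadjusted *p* under 0.05 went from 18.6% to 31.8%, and with scan day as a block to 31.3%. Without the arrays of high Ttr it was 39.0%, with 862 probes in all.

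In APP/PS1 mice on the same treatments the imbalance ran the other way, with 1112 higher and 353 lower probes of 1465 at an unadjusted *p* under 0.05 (3.84%) and 0 called. No probe passed in the test of the difference between both genotypes (0 of 38128, smallest adjusted *p* 0.897 by limma, 1869 probes (4.9%) at an unadjusted *p* under 0.05), so the opposite counts were not shown to differ for any single transcript. This number of 1869 probes was 3345 without APP/PS1 MSX-3 mouse 293 and 3123 without WT MSX-3 mouse 298, and it lay between 1268 and 2411 without any other mouse.

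The target of the drug was well above background on all 12 arrays and did not pass the test. Adora2a, which encodes the A2A receptor, had levels of −3.59 to −2.80 (median −3.23) in WT MSX-3 mice and of −3.51 to −1.55 (median −3.02) in WT H2O mice. The groups overlapped, and H2O mouse 71 alone accounted for the upper end, with the next H2O mouse at −2.91. The log2 difference was −0.35 (SE 0.27, 95% interval −0.94 to 0.25, limma *p* 0.226, adjusted *p* 0.9998). It was −1.09 among arrays of the first scan day, which include mouse 71, and 0.20 among those of the second, and it was −0.09 without mouse 71 and −0.02 without the arrays of high Ttr. Of 11 striatal markers, Adora2a among them, 4 had a difference above 0, and the list median was −0.02. Drd1, the D1 dopamine receptor, had a difference of 0.12 and Penk, the enkephalin precursor, −0.09. The log2 of the summed signal of the 11 striatal markers was highest in H2O mouse 71, at 4.598. The next array was that of MSX-3 mouse 77, at 4.304. The part of tissue carried over from the striatum in the Adora2a value was not tested.

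The remaining adenosine receptors had small differences. Adora1, the A1 receptor, had levels of 3.89 to 4.26 in WT MSX-3 and 3.76 to 4.30 in WT H2O mice, a difference of 0.06 (95% interval −0.16 to 0.28) on its brightest probe. Its other probes had −0.02 and 0.41, with wider intervals of −0.49 to 0.45 and −0.20 to 1.02. Adora3 had a difference of 0.14 (−0.07 to 0.35) and Adora2b one of 0.13 (−0.25 to 0.52). On the brightest probe of each of the 4 receptors the interval held 0, and those of Adora1, Adora2b and Adora3 lay inside a 1.5-fold change.

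Of the receptors that pair physically or functionally with the A2A receptor, none passed the test. Ntrk2, the BDNF receptor TrkB, had the largest difference of these 5 genes, with levels of 2.62 to 3.24 (median 3.21) in WT MSX-3 and of 2.57 to 3.07 (median 2.83) in WT H2O mice. The groups overlapped, and the difference was 0.24 (SE 0.13, limma *p* 0.0828), with 0.11 on a second probe. Grm5, the metabotropic glutamate receptor mGlu5, had −0.11 on its brightest probe and 0.07 and −0.18 on the others. Cnr1, the cannabinoid CB1 receptor, had −0.05 and Fgfr1, a fibroblast growth factor receptor, 0.10. Drd2, the D2 dopamine receptor, was close to background, with 5 of 6 MSX-3 and 4 of 6 H2O arrays well above it, and had a difference of 0.21 with an interval from −0.48 to 0.90.

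Genes that make, clear or carry adenosine were represented by 16 of 19 listed. None was called or reached an unadjusted *p* under 0.05. A difference above 0 was found for 11, beside 58.2% of all named genes. The median was 0.06 beside 0.02 over all named genes, with a range of −1.07 to 0.25. The lowest was Slc28a3, a concentrative nucleoside transporter, with an interval of −2.71 to 0.57, and the next lowest gene had −0.15. Nt5e, the ectonucleotidase that forms adenosine from AMP outside the cell, had 0.25 (95% interval −0.09 to 0.58). Adk, the adenosine kinase that clears adenosine, had 0.04, and Slc29a1, the equilibrative transporter ENT1, had 0.08. Of 33 genes of the cAMP pathway, 0 reached an unadjusted *p* under 0.05 and 22 had a difference above 0, with a median of 0.06 and a range of −0.17 to 0.18. Akap5, the anchoring protein that holds protein kinase A at synapses, had −0.17 (limma *p* 0.0621), Creb1, the cAMP-response element binding protein, −0.12, and Gnas, the stimulatory G protein subunit, 0.14.

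**Figure D2:**
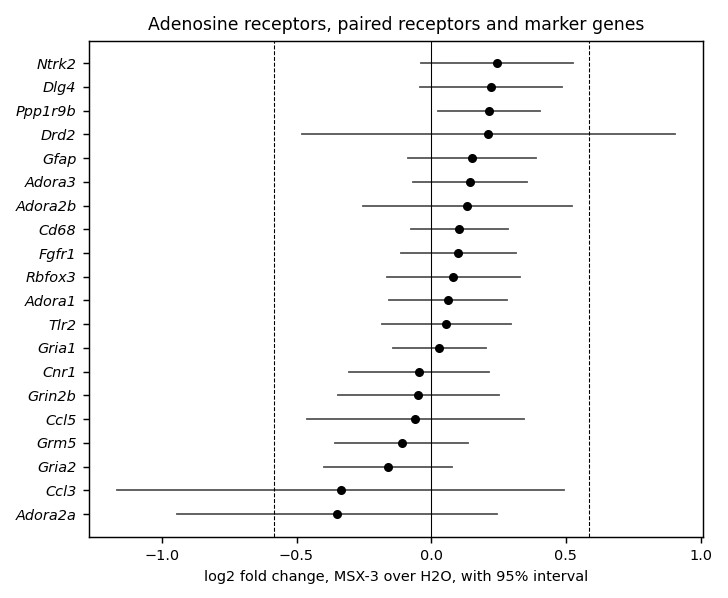
Log2 fold change of MSX-3 over H2O (points) with the 95% interval from limma (lines) for the adenosine receptors, the receptors paired with the A2A receptor and genes followed by qPCR or blot, 6 mice per group. Dashed lines mark a 1.5-fold change; the Ppp1r9b interval (0.03 to 0.40) is the one that leaves out 0, and Adora2a, Ccl3 and Drd2 have the widest.

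Synaptic and glial genes that the study followed by qPCR or on blots were measured by 12 genes. On the brightest probe of each, 8 had a difference above 0 and 1 an unadjusted *p* under 0.05. That gene was Ppp1r9b, which encodes the dendritic spine protein spinophilin. Its levels were 5.56 to 5.90 (median 5.80) in WT MSX-3 and 5.37 to 5.75 (median 5.54) in WT H2O mice. The ranges overlapped, and the difference was 0.21 (SE 0.09, limma *p* 0.0293, adjusted *p* 0.964). Dlg4, the postsynaptic scaffold PSD-95, had 0.22 (limma *p* 0.0933) on its brightest probe and 0.02 and 0.21 on the other 2, of which 1 reached an unadjusted *p* under 0.05. Gria1 and Gria2, subunits of AMPA receptors, had 0.03 and −0.16, and a second Gria2 probe had −0.27 (limma *p* 0.0489). Grin2b, a subunit of NMDA receptors, had −0.05 and −0.19 on its probes. Rbfox3, the neuronal nuclear antigen NeuN, had 0.08 on its brightest probe and 0.00 and −0.32 on the others. Gfap, the astrocyte intermediate filament, had 0.15 on its brightest probe (limma *p* 0.191) and 0.32 on a second one (limma *p* 0.00582). Cd68, a lysosomal protein of microglia, had 0.10 on its brightest probe and 0.23 on the other, which reached an unadjusted *p* under 0.05. The toll-like receptor Tlr2 had 0.06 and the chemokine Ccl5 −0.06. Ccl3 was well above background on 4 MSX-3 and 3 H2O arrays and had −0.34 (95% interval −1.17 to 0.49).

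Genes whose groups did not overlap were named where the probe carried a gene name, which held for 9 higher and 25 lower genes of the 99 probes (0.263% of those tested). Of these, the 9 higher and the 10 lower with the smallest *p* are described. They are the extremes of 37671 probes and were chosen for it, so their *p*-values are given as description. Where groups do not overlap, taking 1 scan day alone or leaving a mouse out cannot change the direction. Values of that kind therefore describe size only and are no support. All adjusted *p*-values of these 19 genes were at or above 0.959 by limma.

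Gstm1, a glutathione S-transferase that conjugates electrophiles with glutathione, had levels of 4.11 to 4.28 (median 4.18) in WT MSX-3 mice and of 3.79 to 4.06 (median 3.83) in WT H2O mice. All MSX-3 mice lay above all H2O mice, of which mouse 56 was nearest. The difference was 0.33 (SE 0.07, 1.26-fold, limma *p* 0.000475, adjusted *p* 0.959), and it was 0.36 among arrays of the first scan day and 0.31 among those of the second. It stayed between 0.26 and 0.37 in the alternative fits. A second Gstm1 probe had 0.25. The Gstm genes lie as near-identical copies whose transcripts can reach each other's probes, so their values are not independent. Over the family, examined after the Gstm1 value was seen, 9 of 10 probes for 7 genes had a difference above 0 and 4 an unadjusted *p* under 0.05, with a range of −0.03 for Gstm2 to 0.33. Gstm6 had 0.27 and Gstm3 0.25. In APP/PS1 hippocampus Gstm1 had 0.08, and the test of the difference between genotypes gave an adjusted *p* of 0.897.

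Tubb6, a beta tubulin, had levels of −3.01 to −2.34 (median −2.72) in WT MSX-3 mice and of −3.37 to −3.04 (median −3.12) in WT H2O mice, a difference of 0.50 (SE 0.12, limma *p* 0.00116). The lowest MSX-3 mouse stood just above the highest H2O mouse. Pank1, a pantothenate kinase of coenzyme A synthesis, had 0.37, and Cdk5r2, the p39 activator of the neuronal kinase Cdk5, 0.28. Peg13, an imprinted non-coding RNA of neurons, had levels of 4.53 to 4.81 against 4.39 to 4.53 and a difference of 0.22. Cyp4v3, a fatty acid hydroxylase, had 0.22, Mat2b, the regulatory subunit of methionine adenosyltransferase, 0.19, Gemin7, a component of the SMN complex, 0.18 and Rell2, a TNF receptor-like membrane protein, 0.14. None of these 9 differences reached 1.5-fold.

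Among the lower genes, Chrna9, the alpha9 subunit of nicotinic receptors, had levels of −1.55 to −0.91 (median −1.24) in WT MSX-3 mice and of −0.84 to −0.41 (median −0.64) in WT H2O mice. The groups were separate, and the difference was −0.63 (SE 0.12, 1.55-fold lower, limma *p* 0.000256, adjusted *p* 0.959). It stayed between −0.75 and −0.54 in the alternative fits, and it was −0.58 in the cortex of WT mice. In APP/PS1 hippocampus it was 0.02, and the difference between genotypes was −0.65 (limma *p* 0.00808, adjusted *p* 0.897).

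Rgs9, a regulator that shortens G protein signalling and is abundant in striatal neurons, had levels of 0.73 to 1.01 (median 0.87) in WT MSX-3 mice and of 1.03 to 1.37 (median 1.14) in WT H2O mice. The highest MSX-3 mouse lay just below the lowest H2O mouse. The difference was −0.32 (SE 0.08, 1.25-fold lower, limma *p* 0.00225), and 3 of 4 Rgs9 probes had an unadjusted *p* under 0.05. It was −0.42 and −0.19 on the 2 scan days and stayed between −0.37 and −0.28 in the alternative fits. Of the 11 striatal markers, Rgs9 was the one that reached an unadjusted *p* under 0.05.

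Firre, a nuclear long non-coding RNA, had −0.32, Stag1, a cohesin subunit, −0.28 and Lrif1, a nuclear receptor-interacting factor, −0.28. Tbrg3, a non-coding RNA, had −0.48 and the transcript 1810020O05Rik −0.34. For Stag1 the other 2 probes gave −0.04 and −0.19. Gcnt2, the I-branching glycosyltransferase, had −0.58 on the probe that separated the groups and −0.09 on a brighter probe. A still dimmer Gcnt2 probe, well above background on 1 MSX-3 and 6 H2O arrays, had −0.92 (limma *p* 0.00724). Slc15a2, the peptide transporter PEPT2, was well above background on 0 of 6 MSX-3 and 4 of 6 H2O arrays on the separating probe. The measured difference there was −0.99, with a lower bound of 1.49-fold on its size, and it did not pass the test (adjusted *p* 0.959 by limma). In APP/PS1 hippocampus the same probe had 1.05. The other 3 Slc15a2 probes ranged from −0.33 to −0.12 with unadjusted *p*-values of 0.133 and above. Nr5a2, a nuclear receptor, had −0.998 on a probe that was well above background on 2 MSX-3 and 5 H2O arrays.

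**Figure D3:**
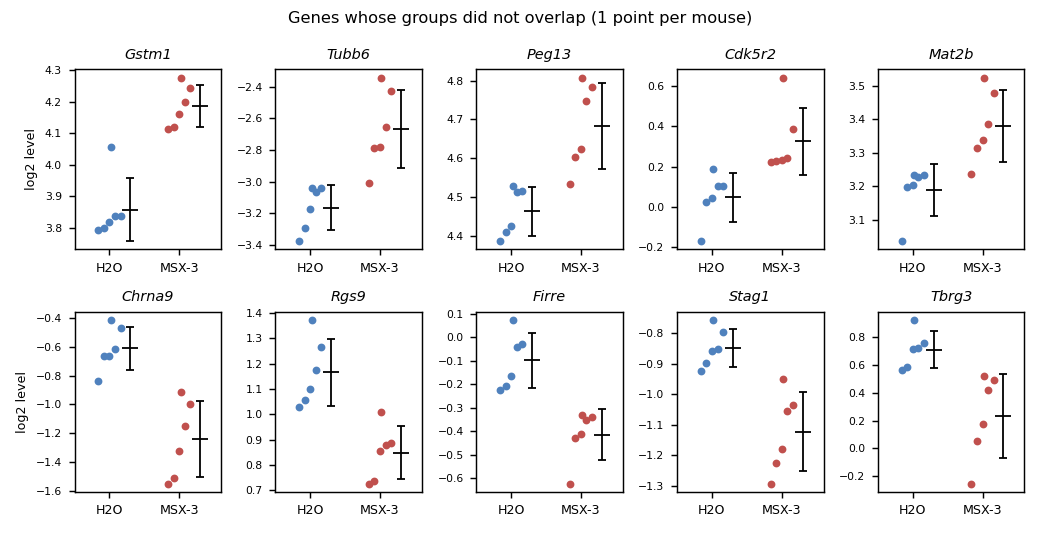
Log2 level of 10 genes whose groups did not overlap, with 1 point per mouse (6 WT H2O, blue, and 6 WT MSX-3, red) and the mean ± SD beside each group in black. The upper row holds genes higher under MSX-3, such as Gstm1 (4.11 to 4.28 against 3.79 to 4.06), and the lower row genes lower under MSX-3, such as Rgs9 (0.73 to 1.01 against 1.03 to 1.37).

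Among probes with a gene name and an unadjusted *p* under 0.05, the largest differences by size had a wide spread and mostly sat on dim probes. Larger estimates that did not reach that *p* ran up to 1.84 and down to −1.64 over all named genes. Sds, a serine dehydratase, had 1.30 (SE 0.45) with 4 MSX-3 arrays and 1 H2O array well above background. Apaf1, the apoptosome scaffold, had 1.07 on a probe well above background on 4 and 3 arrays, while its other probe had 0.00. Upk3bl, a uroplakin-like membrane protein, was well above background on 4 MSX-3 arrays and no H2O array. Its measured difference was 1.20, with a lower bound of 1.12-fold, and it did not pass the test (adjusted *p* 0.959 by limma). Its other probe had −0.07. Downward, Rd3l had −1.53 and Gm41572 −1.37, each with a standard error above 0.5. Tmem72, a membrane protein enriched in choroid plexus, had −1.57 (SE 0.53, limma *p* 0.0113) and was well above background on 5 MSX-3 and 6 H2O arrays.

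Across the 29 gene lists for pathways and cell types, 0 genes were called. Over all named genes 58.2% lay above 0 and 1.25% were higher at an unadjusted *p* under 0.05. The counts of each list stand beside these shares. Apart from those of choroid plexus and blood, all list medians lay between −0.06 and 0.18, beside a median of 0.02 over all named genes. The fit without the arrays of high Ttr kept 5 MSX-3 and 3 H2O mice. There no clock, cortical layer, glutamate receptor, postsynaptic scaffold, astrocyte, reactive astrocyte or microglial gene was higher at an unadjusted *p* under 0.05. Interneurons held 1 such gene, oligodendrocytes 3, adenosine enzymes and transporters 1, immediate early genes 2 and choroid plexus 5. Of 33 cAMP genes 15 lay above 0, and of 15 glucocorticoid genes 3.

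**Figure D4:**
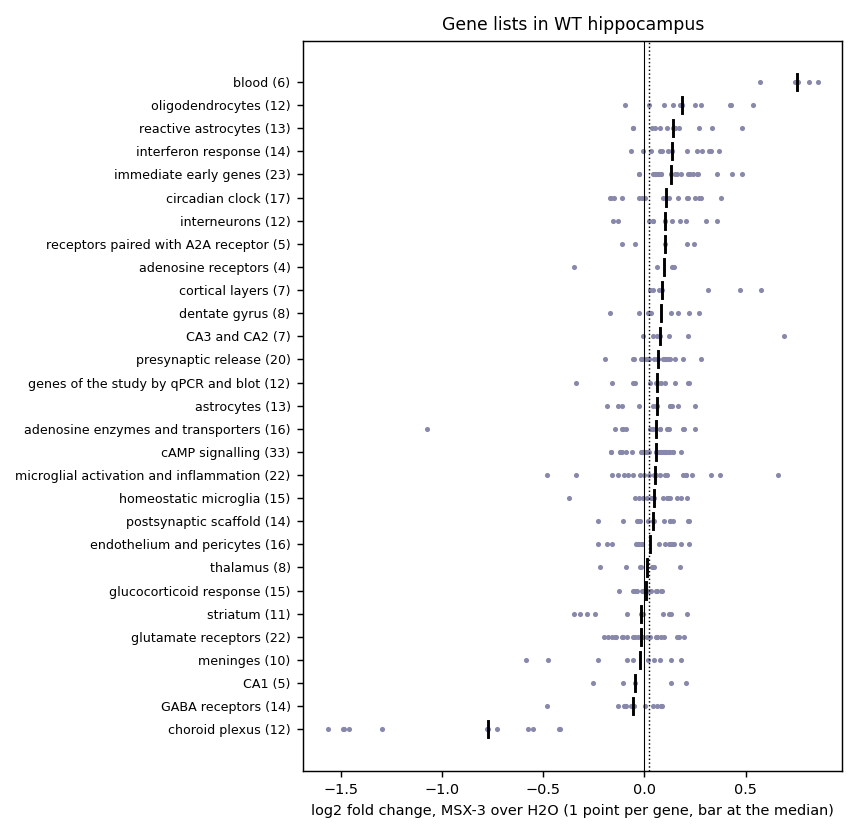
Log2 fold change of MSX-3 over H2O for each measured gene of 29 lists (points, number of genes in brackets) with the list median (bars); the dotted line marks the median of all named genes (0.02). Choroid plexus genes have a median of −0.77 and blood genes one of 0.75, while most other medians lie within 0.2 of 0.

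All 12 choroid plexus genes had a difference below 0 (median −0.77), 1 of them at an unadjusted *p* under 0.05. Kcnj13, a potassium channel of the choroid epithelium, had −1.48 (95% interval −4.09 to 1.12), Aqp1, its water channel, −1.49, Prlr, the prolactin receptor, −1.29 and Kl, which encodes klotho, −0.57. The log2 of the summed signal of the list was 3.30 to 7.55 (median 4.03) in WT MSX-3 mice and 2.96 to 8.14 (median 5.62) in WT H2O mice. Without the arrays of high Ttr, 10 of the 12 genes had a difference above 0 and the median was 0.51. In that fit 5 genes were higher and 1 lower at an unadjusted *p* under 0.05. The direction of the list was thus opposite without these 4 mice. They were chosen by Ttr, which is itself 1 of the 12 genes, so this fit is not independent of the choice. With slide as a block the median was −2.33 and 4 genes were lower at an unadjusted *p* under 0.05. The median was −1.48, −1.46, −1.35 and −1.24 without mice 310, 303, 308 and 318 in turn, and −0.51 and −0.40 without mice 258 and 71.

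All 6 blood genes had a difference above 0 with a median of 0.75 and none at an unadjusted *p* under 0.05. The median was 0.45, 0.48 and 0.49 without mice 308, 318 and 282 in turn, and 1.22, 1.20 and 1.15 without mice 258, 310 and 298, with all 6 genes above 0 each time. Hba-a1, an alpha globin of red cells, ranged from 1.39 to 4.68 in WT MSX-3 and from 1.12 to 4.85 in WT H2O mice. Both groups held mice with high and mice with low globin. The difference of Hbb-bt, a beta globin, was 2.37 on the first scan day and −0.40 on the second, and Alas2, the erythroid enzyme of haem synthesis, had 2.06 and 0.12.

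Oligodendrocyte genes held the most members at an unadjusted *p* under 0.05, with 3 of 12 higher (1.25% of all named genes were higher) and 0 lower. A total of 11 had a difference above 0, and the median was 0.18. The log2 of the summed signal of the list was 7.09 to 7.80 (median 7.43) in WT MSX-3 mice. In WT H2O mice it was 6.86 to 7.78 (median 7.42), nearly the same. Mobp, a basic protein of compact myelin, had levels of 2.64 to 3.45 (median 3.00) in WT MSX-3 and of 2.02 to 2.99 (median 2.44) in WT H2O mice. The groups overlapped at the upper H2O mice, and the difference was 0.54 (SE 0.19, limma *p* 0.0138, adjusted *p* 0.959). Cldn11, the claudin of myelin sheaths, had 0.43 and Mag, the myelin-associated glycoprotein, 0.42. A second Mobp probe had 0.31. Other myelin transcripts had smaller differences. Mbp, myelin basic protein, had 0.14 and Mog, a myelin surface glycoprotein, 0.02. The number above 0 stayed between 9 and 12 when each mouse was left out in turn, with medians of 0.10 without mouse 318 and 0.11 without mouse 310 up to 0.28 without mouse 282. Without mouse 310, 318, 49 or 77, 1 gene reached an unadjusted *p* under 0.05 instead of 3. Without the arrays of high Ttr all 12 lay above 0 with a median of 0.49. In APP/PS1 hippocampus 2 of these 12 genes lay above 0, and the test between genotypes passed for none of the named genes. The number of cells of a type and the RNA per cell cannot be told apart in tissue RNA of this kind.

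Immediate early genes, which neurons transcribe within minutes of activity, had 21 of 23 members above 0 with a median of 0.13, beside 58.2% above 0 and a median of 0.02 over all named genes. One reached an unadjusted *p* under 0.05, higher, and 0 were called. Egr1, a zinc finger factor of this class, had levels of 2.33 to 2.91 (median 2.49) in WT MSX-3 and of 1.62 to 2.59 (median 2.26) in WT H2O mice. The groups overlapped, with H2O mice 310 and 71 lowest. The difference was 0.43 (SE 0.17, limma *p* 0.0293, adjusted *p* 0.964), 0.72 on the first scan day and 0.13 on the second. Nr4a1, an orphan nuclear receptor, had 0.36 (95% interval −0.17 to 0.89), Junb, an AP-1 subunit, 0.24 and Fosb, another AP-1 subunit, 0.23. Fos had levels of −1.43 to −0.07 in WT MSX-3 and of −1.68 to −0.17 in WT H2O mice, nearly the same range, and a difference of 0.18. Arc, a regulator of AMPA receptor uptake, had 0.27 and Npas4, an activity-dependent transcription factor, 0.08. Median differences of the list were 0.30 within the first scan day and 0.06 within the second. Without mouse 49 of the MSX-3 group the median was 0.05, without H2O mouse 71 or 310 it was 0.08, without H2O mouse 308 it was 0.20, and over all mice left out in turn 18 to 23 genes lay above 0. Without the arrays of high Ttr 19 did. In APP/PS1 hippocampus 2 of the 23 genes lay above 0, and for Egr1 the test between genotypes gave an adjusted *p* of 0.897 by limma.

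Since cAMP acts on such genes through the cAMP-response element (CRE), the promoters of 3 of them are shown, from RefSeq on build GRCm38.p6, running 5′ to 3′ on the strand of the gene 300 bases each and mostly upstream of the start. Capitals mark the CRE half-site TGACG on either strand, where CGTCA is its other strand and the full CRE TGACGTCA holds 2 overlapping half-sites. Nr4a1 (chr15:101266596-101266895, plus strand) is shown for its 4 half-sites, Fos (chr12:85473640-85473939, plus strand) as the best known member, and Btg2 (chr1:134079106-134079405, minus strand), an antiproliferative gene, for its full CRE.
Nr4a1: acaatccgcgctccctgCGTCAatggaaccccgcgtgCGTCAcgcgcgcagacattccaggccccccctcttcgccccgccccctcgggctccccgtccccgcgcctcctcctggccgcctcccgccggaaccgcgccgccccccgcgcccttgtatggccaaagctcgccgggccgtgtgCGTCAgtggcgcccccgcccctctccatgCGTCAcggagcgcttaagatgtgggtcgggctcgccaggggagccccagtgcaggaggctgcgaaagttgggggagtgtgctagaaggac
Fos: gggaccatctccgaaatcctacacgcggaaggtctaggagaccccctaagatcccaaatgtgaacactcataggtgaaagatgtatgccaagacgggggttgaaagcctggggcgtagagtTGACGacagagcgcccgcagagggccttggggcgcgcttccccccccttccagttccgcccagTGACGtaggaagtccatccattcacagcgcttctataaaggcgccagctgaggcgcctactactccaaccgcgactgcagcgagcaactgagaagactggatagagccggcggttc
Btg2: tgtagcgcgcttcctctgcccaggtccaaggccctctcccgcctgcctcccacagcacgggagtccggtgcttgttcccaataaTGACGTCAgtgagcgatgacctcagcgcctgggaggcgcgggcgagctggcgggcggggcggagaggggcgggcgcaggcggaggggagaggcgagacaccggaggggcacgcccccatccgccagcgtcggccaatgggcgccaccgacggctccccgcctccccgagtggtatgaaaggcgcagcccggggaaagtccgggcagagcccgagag
Of the 23 listed genes, 17 had an entry in the promoter table, and 14 of them (82.4%) held a half-site in at least 1 promoter, beside 6228 of all 27025 genes (23%). Counted per promoter, 16 of their 28 (57.1%) held one, beside 6837 of all 32851 (20.8%). The full CRE was found for Btg2 and Dusp1, a MAP kinase phosphatase, in 2 of the 17, and in 2.03% of all genes. The motif was chosen after the values of these genes were seen, and a match describes letters only. Btg2 had a difference of −0.03 (95% interval −0.38 to 0.32) and Dusp1 one of 0.08.

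Clock genes were measured by 17 of 18 listed. Of these, 11 had a difference above 0 (64.7%, beside 58.2% of all named genes) and 6 one below 0, with a range of −0.17 to 0.38. An unadjusted *p* under 0.05 was reached by 1, higher. Dbp, a clock output factor, had levels of 3.78 to 4.02 (median 3.89) in WT MSX-3 and of 3.39 to 3.81 (median 3.69) in WT H2O mice. The overlap was small, and the difference was 0.25 (SE 0.09, limma *p* 0.0191) and 0.32 on a second probe. Without the arrays of high Ttr it was 0.08. Per1, a core clock repressor, had 0.27 and Nr1d1, the repressor REV-ERB alpha, 0.28. Of 15 genes that respond to glucocorticoids, 9 lay above 0 with a median of 0.01 and none at an unadjusted *p* under 0.05.

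Neurotransmitter receptors gave small values in both directions. Of 22 glutamate receptor genes 10 lay above 0 (median −0.02), and Grm3, a group II metabotropic receptor, reached an unadjusted *p* under 0.05 with 0.19. Of 14 GABA receptor genes 6 lay above 0 (median −0.06). Gabra2, the alpha2 subunit of GABA A receptors, had levels of 0.84 to 1.45 (median 1.16) in WT MSX-3 and of 1.31 to 2.20 (median 1.47) in WT H2O mice. The groups overlapped between 1.31 and 1.45, and the difference was −0.48 (SE 0.16, 1.40-fold lower, limma *p* 0.0112, adjusted *p* 0.959). Of 20 genes of transmitter release 15 lay above 0 (median 0.07), 0 at an unadjusted *p* under 0.05, and this number was 11 under quantile normalization. Syp, the vesicle protein synaptophysin, had 0.12.

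Interneuron genes had 10 of 12 members above 0 (median 0.10). Npy, a neuropeptide of hilar interneurons, had levels of 2.07 to 2.73 (median 2.39) in WT MSX-3 and of 1.93 to 2.34 (median 1.996) in WT H2O mice. Most MSX-3 mice stood above most H2O mice, and the difference was 0.36 (SE 0.12, 1.28-fold, limma *p* 0.0101, adjusted *p* 0.959), with 0.34 and 0.33 on the 2 scan days. Sst, somatostatin, had 0.30 and Pvalb, parvalbumin, 0.20. Markers of the hippocampal fields stayed without a member at an unadjusted *p* under 0.05, with medians of 0.08 for the dentate gyrus, 0.08 for CA3 and CA2 and −0.05 for CA1. Prox1, the granule cell transcription factor, had 0.03 and Wfs1, a marker of CA1 pyramidal cells, 0.21. Cortical layer genes had 7 of 7 members above 0 with a median of 0.09, and Lamp5 reached an unadjusted *p* under 0.05 with 0.31. Of these 7 genes, 2 stood higher in hippocampus than in cortex, Hs3st4 by 1.22. The part of adjoining cortex in the dissections was not tested.

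Microglial genes were listed by state. Of 15 homeostatic genes 11 lay above 0 (median 0.05, range −0.37 to 0.21), lowest for Olfml3. Fcrls, a microglial Fc receptor-like protein, had 0.21 (limma *p* 0.0316) and was the one at an unadjusted *p* under 0.05. Of 22 genes of activation and inflammation 13 lay above 0 (median 0.05) and 2 were higher at an unadjusted *p* under 0.05, beside 1.25% of all named genes. The range was −0.48 for Itgax, an integrin of activated microglia, to 0.66 for the chemokine Ccl2. C4b, complement component 4, had levels of 2.73 to 3.15 (median 2.89) in WT MSX-3 and of 2.35 to 2.80 (median 2.59) in WT H2O mice. The groups overlapped between 2.73 and 2.80, and the difference was 0.33 (SE 0.10, 1.25-fold, limma *p* 0.00758, adjusted *p* 0.959). C1qb, a chain of complement C1q, had 0.24, and its partners C1qa and C1qc had 0.20 and 0.19. Trem2, a lipid receptor of microglia, had 0.08. Of 14 interferon-response genes 12 lay above 0 (median 0.14), 0 at an unadjusted *p* under 0.05, and Irf7 had 0.32 (limma *p* 0.0521).

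Astrocyte genes had 9 of 13 members above 0 (median 0.06). Aldh1l1, a folate enzyme used to mark astrocytes, had 0.25 (limma *p* 0.0304) and Aldoc, aldolase C, 0.16 (limma *p* 0.0495). Reactive astrocyte genes had 11 of 13 above 0 (median 0.14), with 1 at an unadjusted *p* under 0.05, the immunoproteasome subunit Psmb8 with 0.27. Vim, vimentin, had 0.14. Genes of endothelium and pericytes had 8 of 16 above 0 (median 0.03).

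**Figure D5:**
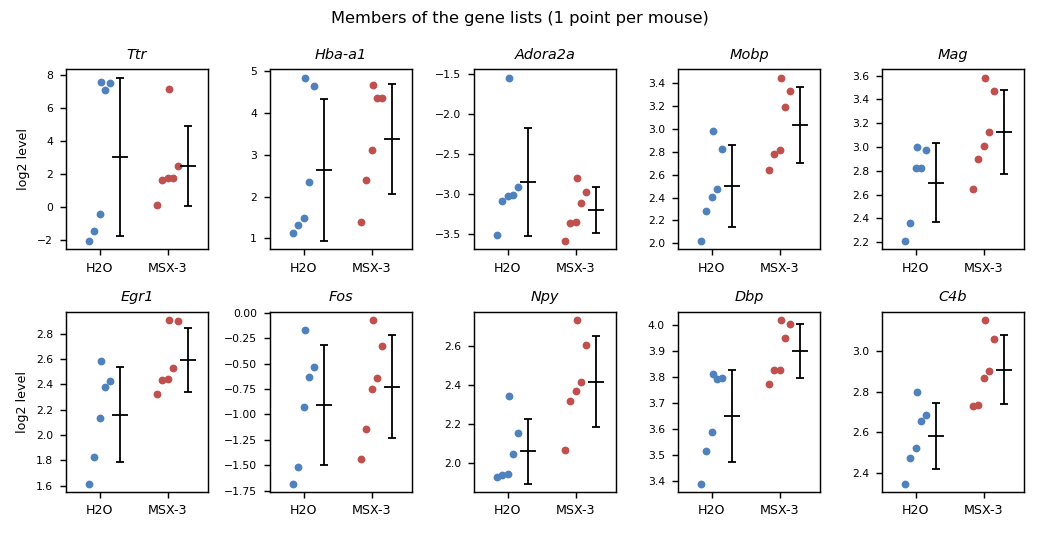
Log2 level of 10 members of the gene lists, with 1 point per mouse (6 WT H2O, blue, and 6 WT MSX-3, red) and the mean ± SD beside each group in black. Ttr splits both groups into mice above 7 and mice at or below 2.51, Adora2a has 1 high H2O mouse at −1.55, and the groups overlap for each gene shown.

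In the cortex of the same WT mice, taken from the 10 arrays on which the scanner found the spot grid, 0 of 37792 probes were called (0%, smallest adjusted *p* 0.481 by limma, 3274 probes or 8.66% at an unadjusted *p* under 0.05). Of these 3274 probes, 1047 were higher and 2227 lower, so lower probes prevailed there as in WT hippocampus. Probes with a gene name made up 35.1% of the lower ones. The effect in hippocampus minus that in cortex was fitted without the mouse as a block, although both tissues came from the same mice. It passed for 0 of 36761 probes (smallest adjusted *p* 0.992 by limma, 710 or 1.93% at an unadjusted *p* under 0.05). This last number ran from 414 without mouse 318 to 2836 without mouse 258, and it moved by over 1.5 times without each mouse but 310 and 77. Mobp had 0.64 in the cortex beside 0.54 in the hippocampus, Chrna9 −0.58 beside −0.63 and Gstm1 0.19 beside 0.33. Egr1 had 0.15 beside 0.43, and Adora2a −0.01 beside −0.35. For none of these genes was the difference between tissues past the threshold.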

How the data were processed

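Total RNA of hippocampus was hybridised on one-color Agilent arrays, 1 per mouse. The authors deposited the intensity of each spot as given by Agilent Feature Extraction 10.7.3.1, after subtraction of background and spatial detrending, not normalized between arrays. The deposited series matrix holds the same values (2267136 of 2267136 compared equal at a relative tolerance of 1e-06). Control spots (3671 of 62976) and spots flagged as outliers were dropped. Each array's 75th percentile was subtracted on the log2 scale and spots of a probe were averaged, giving 56605 probes, of which 32994 were named through RefSeq accessions (22911 genes). Probes tested were those detected (well above background) on 4 or more arrays of any of the 4 hippocampal groups.

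MSX-3 and H2O were compared with lmFit and eBayes of limma 3.58.1 in R 4.3.3 (files read with data.table, version 1.17.8) on the 12 arrays, and the pipeline was tested on simulated data. All *p*-values of probes come from limma with Benjamini-Hochberg adjustment over all probes tested. The differences between genotypes and tissues used contrasts over their 4 groups. For a gene with several probes, the brightest is given, except that a gene named because its groups did not overlap or for the size of its difference is given on the probe that met the rule. Genes were named if they were adenosine receptors, their partners or genes followed by the study, if groups did not overlap (9 higher, 10 lower by smallest *p*), if among the 3 largest differences in each direction at an unadjusted *p* under 0.05, or if list members at that *p* (at most 4 per list). Further list members are given as examples. Some list members are counted but not reported here by name. The comparison, the 29 lists and the rule were chosen with earlier results of these data known. Within a tissue, samples are separate mice, so the spread is between mice. The main fit of the difference between tissues treated the 2 tissues of a mouse as independent samples. The number of arrays limits the precision.

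Both tissues come from the same mice by their labelled numbers. Deviations of a mouse's 2 tissues from their group means correlated at −0.52 to 0.40 (median −0.16) over 10 mice. Alternatives covered the normalization, background, filter, weights, slide, scan day, groups in the fit and each mouse left out. Leaving out the arrays of high Ttr was chosen after seeing the data. Cortex arrays without a found grid entered only an alternative fit of the difference between tissues, and the cortex of APP/PS1 mice was not used.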

Additional observations from a re-analysis of the deposited data

Results flagged for a closer look

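In 120 groups of 6 mice examined over the named genes, 8 held a mouse set apart from the other 5 by a gap beyond Dixon's 95% limit for 6 samples, and chance flags about 1 in 20 groups. MSX-3 mouse 303 was set apart for 3 genes, at −2.97 for Apaf1, −3.28 for Sds and −0.62 for Firre, the first 2 on dim probes. MSX-3 mouse 298 was lowest at 3.11 for Cnr1 and MSX-3 mouse 304 at −3.08 for 1810020O05Rik. Among H2O mice, mouse 71 was highest for Adora2a at −1.55, mouse 56 highest for Gstm1 at 4.06 and mouse 310 lowest for Mat2b at 3.04. The arrays of mice 303, 71 and 56 were also among the 4 arrays of high Ttr. The part of choroid plexus RNA in these values was not tested.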

How the results depend on the processing

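The number of called probes was 0 in every alternative run for MSX-3 against H2O, for the difference between genotypes and for the difference between tissues. The smallest adjusted *p*-value for MSX-3 against H2O was 0.0982 without MSX-3 mouse 304 and 0.211 with all 4 groups and slide as a block. With the mouse as a replicate block, the difference between tissues kept 0 called probes, and 1465 reached an unadjusted *p* under 0.05 instead of 710. That number was 4019 with array weights, 1165 with scan day as a block and 26 with the cortex arrays without a found grid added. For the difference between genotypes it was 3186 with array weights and 1072 with scan day as a block instead of 1869. For MSX-3 against H2O the number at an unadjusted *p* under 0.05 was 1226 to 2747 with a mouse left out, against 1932, lowest without MSX-3 mouse 303, and 862 without the arrays of high Ttr. The share of higher probes among them was 34.5% with slide as a block, and 15.0% to 27.2% with a mouse left out. Of 60 named genes, 51 kept their direction in all alternatives, and the others, all uncalled with 95% intervals that held 0, gave 23 values of changed sign over the alternatives. Most of the 60 were named for their values in these same data, which largely set their direction beforehand. All 9 genes with a changed sign were adenosine receptors, their partners or genes followed by the study, which were named whatever their values. The number of 51 is thus no measure of stability. Gria1 was −0.057 under quantile normalization, −0.040 with slide as a fixed block, −0.031 with all 4 groups and that block and −0.0047 without the arrays of high Ttr, and ran from −0.0042 to 0.074 with a mouse left out. Grin2b was 0.051, 0.012, 0.039 and 0.029 with slide fixed, slide random, scan day and all 4 groups with slide as the block, 0.054 without the arrays of high Ttr, and −0.112 to 0.045 with a mouse left out. Under quantile normalization Adora1 was −0.0046 and Ccl5 0.025, and with slide as a fixed block Fgfr1 was −0.041. Without the arrays of high Ttr Rbfox3 was −0.051 and Adora1 −0.064. With a mouse left out Cnr1 ran from −0.100 to 0.042, Tlr2 from −0.0053 to 0.107, Ccl5 from −0.167 to 0.039 and Drd2 from −0.00012 to 0.350. The cause was not tested.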
